A study of Mus musculus with 2 samples.

Results

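The integrin and laminin genes are the cell's adhesion receptors and a principal set of their ligands. Members were chosen by gene symbol alone, as every RefSeq entry of the deposited activity table whose symbol begins with Itga or Itgb, leaving out the binding proteins and the integrin-like gene whose symbols contain bp or bl, or is one of Lama, Lamb and Lamc followed by a digit. This gave 44 of 24165 entries, and the 44 entries represent 38 of 20128 gene symbols, with 18 integrin alpha genes, 9 integrin beta genes and 11 laminin genes. The rule uses no measured value, although it was set with earlier results of these data known. The study made 2 replicate GRO-seq libraries from untreated C2C12 cells, an established mouse myoblast line whose cells can fuse into muscle fibres, grown to 80% confluency in medium with 10% fetal bovine serum. GRO-seq reads the RNA that polymerases already on the DNA extend in isolated nuclei, where it takes up bromouridine and can be pulled down with an antibody, and so it measures transcription and not RNA level. The authors pooled the libraries and deposited a single gene activity for each entry, in RPKmM, which is RPKM taken over mappable bases. It counts sense reads in the gene body, which leaves out the first 1 kb after the TSS, and an entry is marked Inactive where this density was not significantly above that of regions without genes, by the authors' Poisson test and false discovery rate. An inactive entry can therefore still hold reads. There is 1 group with no contrast in it, and no value per library was used here, so no replicate error, standard deviation or test could be computed for any value or any order of values below. Values are rounded to 2 decimals, so that a gene at 0.01 can lie anywhere within 0.005 of that value, and the depth behind each value is not given in the table.

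Integrins are heterodimers of an alpha and a beta subunit that span the plasma membrane and link the matrix outside the cell to actin inside it through talin, kindlin and vinculin. Laminins are trimers of an alpha, a beta and a gamma chain, named by the numbers of these chains, and they form the sheet of the basement membrane together with type IV collagen, nidogen and perlecan. In skeletal muscle, laminin-211 surrounds the fibre and is bound by integrin alpha7 beta1 and by dystroglycan, and loss of the alpha2 chain or of the alpha7 subunit causes muscular dystrophy.

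The myoblast identity of the cells was checked with marker genes. All 7 myoblast markers were active, from 0.55 RPKmM for Pax7 to 72.45 for Des, with Myod1 at 2.39 and Myf5 at 5.03. All 4 markers of differentiated muscle were also active, with Myog at 2.39, Myh3 at 5.28, Acta1 at 6.85 and Ckm at 0.2. Of the leukocyte markers, 3 of the 4 listed were inactive, Ptprc among them, and Cd3e was at 0.01. Of the endothelial markers 2 of 4 were active, both at 0.01, of the epithelial ones 2 of 4, at no more than 0.03, and of the neural ones 1 of 3, at 0.01. The fibroblast markers Pdgfra, at 0.38 and 0.29 in its entries, and Dcn, at 0.11, were active and Thy1 was inactive. Of the platelet markers only Gp1bb is listed, at 1.09. Summed activity was 92.9 over the myoblast list and 0.01 over the leukocyte list.

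Promoter sequences of members are given first, because the counts of CpGs and motifs described below refer to them. For 24 of the 38 genes a RefSeq promoter (GRCm38.p6) was available, as 27 windows of 250 bases before to 50 bases after a start, and the upstream part of all 27 was found once in mm9, the build of the deposited data. Genes without a window included Itga6, Itga7, Itgad, Itgae, Itgal, Itgb2, Itgb3, Itgb4, Lama1, Lama3, Lama4, Lamc1 and Lamc3. The 150 bases upstream of the start are printed 5′ to 3′ in the direction of transcription for 7 genes, with mm9 positions and with each CpG dinucleotide in capitals, of which Lama2 has none in this stretch. They show the most active member (Itgb1), further members at 1 RPKmM or above in order of falling CpG count in the whole window (Lama5, Itga5, Lamb2 and Lama2), and inactive members with 23 (Itga8) and 6 CpGs (Itgam).
Itgb1 (chr8:131209404-131209553, plus strand): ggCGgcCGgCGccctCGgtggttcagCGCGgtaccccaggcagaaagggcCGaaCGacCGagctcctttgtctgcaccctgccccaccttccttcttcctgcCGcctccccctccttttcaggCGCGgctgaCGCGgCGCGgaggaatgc
Lama5 (chr2:179960565-179960714, minus strand): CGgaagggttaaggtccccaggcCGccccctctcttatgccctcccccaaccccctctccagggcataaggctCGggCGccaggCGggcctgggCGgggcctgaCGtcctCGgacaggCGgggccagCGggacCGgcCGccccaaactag
Itga5 (chr15:103197223-103197372, minus strand): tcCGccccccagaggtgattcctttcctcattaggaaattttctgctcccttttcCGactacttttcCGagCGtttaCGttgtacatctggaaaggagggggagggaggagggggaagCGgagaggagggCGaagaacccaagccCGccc
Lamb2 (chr9:108382043-108382192, plus strand): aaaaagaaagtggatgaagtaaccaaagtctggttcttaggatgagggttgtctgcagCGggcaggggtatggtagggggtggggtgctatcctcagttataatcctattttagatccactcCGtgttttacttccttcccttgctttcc
Lama2 (chr10:27336749-27336898, minus strand): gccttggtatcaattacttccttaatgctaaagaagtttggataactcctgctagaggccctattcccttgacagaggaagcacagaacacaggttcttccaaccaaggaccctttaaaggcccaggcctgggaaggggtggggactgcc
Itga8 (chr2:12223572-12223721, minus strand): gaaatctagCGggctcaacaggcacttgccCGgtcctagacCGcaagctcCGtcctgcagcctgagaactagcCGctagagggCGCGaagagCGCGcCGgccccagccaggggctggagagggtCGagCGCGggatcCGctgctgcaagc
Itgam (chr7:135206004-135206153, plus strand): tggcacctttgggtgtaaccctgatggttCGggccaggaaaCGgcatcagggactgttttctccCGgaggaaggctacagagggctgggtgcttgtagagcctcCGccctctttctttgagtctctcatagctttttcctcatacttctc

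Taken as a whole, the member entries ranged from inactive to 13.99 RPKmM. Of the 44 entries 34 (77.3%) were active, against a background of 70.2% of all entries, and 29 of the 38 genes had an active entry, against 68.7% of all gene symbols. Of all member entries 15 (34.1%) had an activity of at least 1 RPKmM, against 32.3%, and 25 (56.8%) of at least 0.1, against 57.2%. The shares therefore lay close to the background. The median of the active member entries was 0.44 (quartiles 0.08 and 2.77), below the median of 0.87 (0.22 and 1.99) for all active entries, while the upper quartile was above that of all active entries. At 10 RPKmM or above were 2 member entries (4.55%), against 2.03% of all. Collagen genes, the other large matrix family, had 32 of 47 entries active (68.1%) and 15 entries at 1 or above. Their active entries had a median of 0.735 (quartiles 0.03 and 3.65). The Mmp, Adam, Adamts and Timp genes had 51 of 93 active (54.8%) and a median of 0.24 (quartiles 0.025 and 1.65). These values are given side by side as descriptions, as entries are not replicates and no difference between the families was tested.

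**Figure D1:**
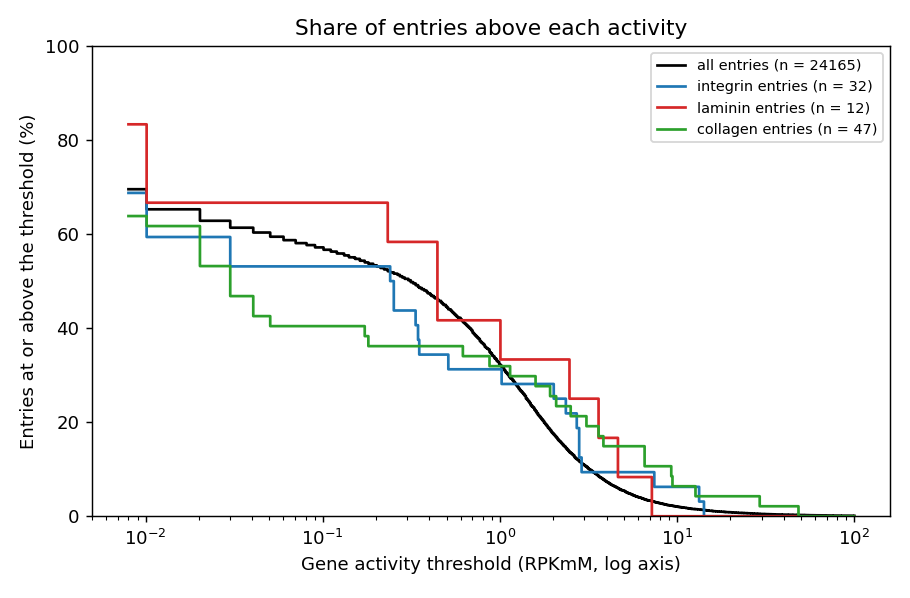
The percentage of RefSeq entries (vertical axis) with a gene activity at or above each threshold (horizontal axis, RPKmM, log scale) is shown for all entries, integrin entries, laminin entries and collagen entries. At 1 RPKmM the curves of all entries, at 32.3%, and of integrin entries, at 31.2%, nearly meet, and laminin entries lie at 41.7%.

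Laminin genes had the higher centre. Of the 11 laminin genes 9 were active, with a median of 1 RPKmM over active genes, each gene represented by the median of its active entries. Of the 27 integrin genes 20 were active, with a median of 0.335, so that the ratio of medians was 2.99. The ratio was as low as 1.60 on other scales, and with 9 and 20 genes it describes these lists only. The highest integrin genes were above every laminin gene, as Itgb1, Itga7 and Itga5 exceeded the highest laminin gene, Lamb2.

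**Figure D2:**
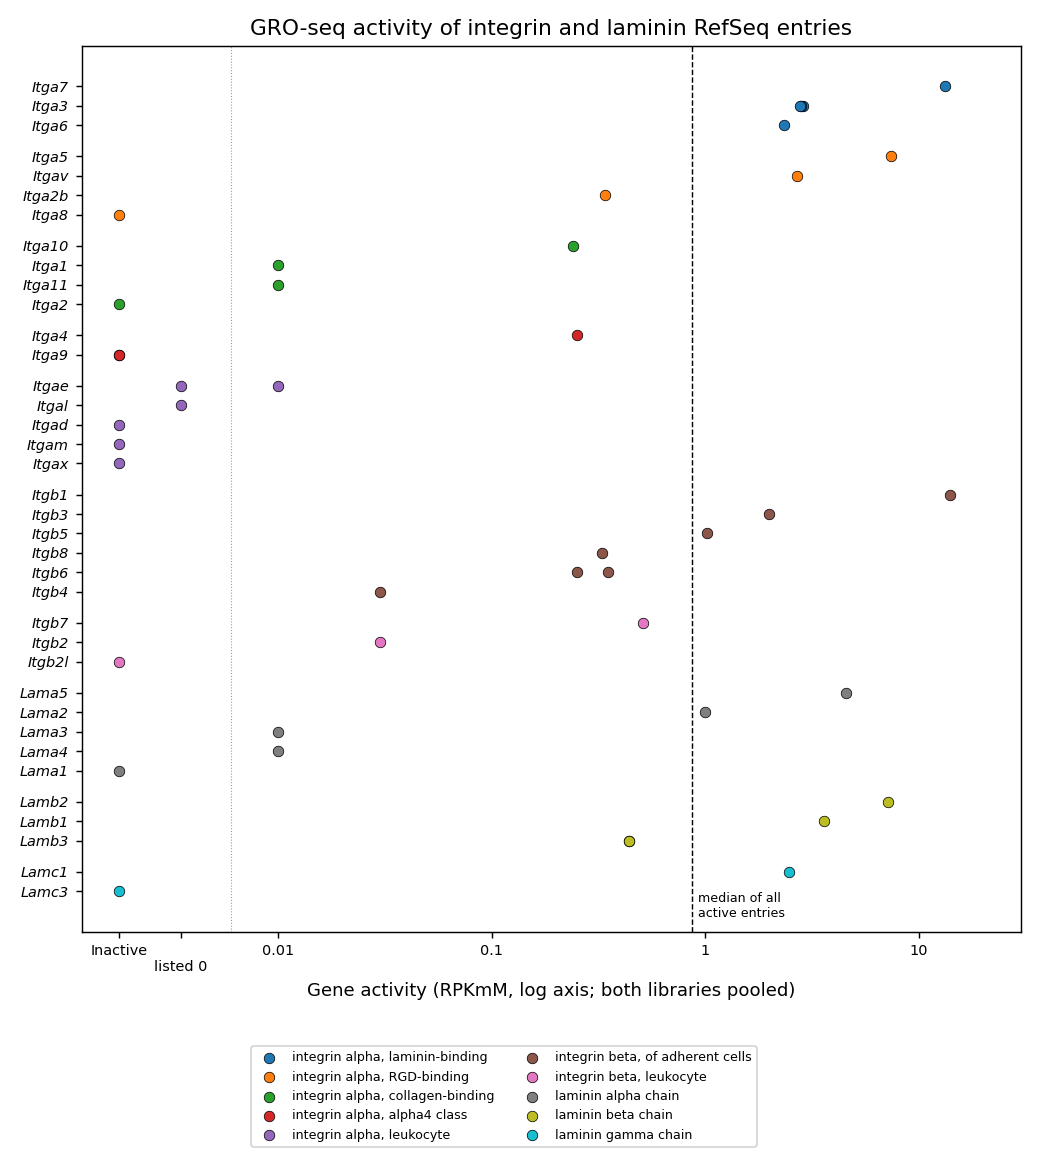
Each point is the gene activity (RPKmM, log axis, both libraries pooled) of a RefSeq entry, with a row for each of 37 genes, and genes are grouped by role and coloured by it. Entries listed at 0 and inactive entries stand left of the dotted line, and the dashed line is the median of all active entries, 0.87. The alpha subunits grouped as laminin-binding all lie right of it, and the leukocyte alpha subunits all lie at 0.01 or further left.

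Among the integrin alpha subunits, all 3 grouped here as laminin-binding were active and lay above the median of all active entries. The grouping gives each subunit 1 role and does not list every subunit that can bind laminin. Itga7 (NM_008398), the alpha subunit typical of skeletal muscle, had 13.29 RPKmM, above 97.9% of all active entries. Itga3 had 2.87, 2.80 and 2.79 in its 3 entries. Itga6, which pairs with either the beta1 or the beta4 subunit, had 2.33, and its span overlaps the lincRNAs Gm13663 and Gm13662 on the same strand over 2694 and 9877 bases, with Gm13647 ending 219 bases upstream. Itga7 was thus 4.75 times as active as Itga3 and 5.70 times as active as Itga6, while the last 2 genes were close to each other.

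The alpha subunits that recognise the RGD sequence of fibronectin, vitronectin and related ligands ranged from high to inactive. Itga5 (NM_001314041), the classical fibronectin receptor subunit, had 7.42 RPKmM and was the third most active member. Itgav, which pairs with several beta subunits, had 2.69, so Itga5 was 2.76 times as active. Itga2b, known from platelets, had 0.34, and its body follows the 3′ end of Gpatch8, a gene on the same strand with an activity of 4.71, by 5793 bases. The platelet marker Gp1bb was at 1.09. Whether transcription past the end of Gpatch8, or cells of another type, add reads to Itga2b was not tested. Itga8, known from kidney and smooth muscle, was inactive.

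The collagen-binding alpha subunits were low. Itga1 and Itga11 were each listed at 0.01, and Itga2 was inactive. The span of Itga1 overlaps that of Pelo on the same strand over 1832 bases. Itga10 was the highest of the 4 at 0.24, but part of its span overlaps another annotation on the same strand, so its value is uncertain. In contrast, collagen genes that encode ligands of these receptors were active, with Col1a2 at 28.94, Col1a1 at 9.29, Col4a1 at 2.49 and Col4a2 at 1.9.

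The remaining alpha subunits were low or inactive. Itga4, which binds VCAM-1 and fibronectin, had 0.25 RPKmM, while Vcam1 itself had 3.63. Its closest relative Itga9 was inactive in both entries. The 5 alpha subunits of leukocytes had no entry above 0.01. Itgam, Itgax and Itgad were inactive, Itgal was active but listed at 0 after rounding, and Itgae was listed at 0.01 and 0 in its entries.

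Among the beta subunits, Itgb1 (NM_010578) was by far the highest. It had 13.99 RPKmM, the highest activity of any member and above 98.1% of all active entries, and it made up 76.9% of the summed activity of the 9 beta genes. Next were Itgb3, at 1.99, and Itgb5, at 1.02, both partners of Itgav. Itgb1 was 7.03 times as active as Itgb3. Itgb8 had 0.33 and Itgb6 had 0.35 and 0.25 in its entries, and both subunits are known for the activation of latent TGF-beta. Itgb4, the hemidesmosome subunit of epithelia, had 0.03. Of the 4 epithelial markers, Krt14 was at 0.02 and 0.03 in its entries, Cdh1 was at 0.02, and Krt5 and Epcam were inactive.

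Of the leukocyte beta subunits, Itgb2 had 0.03 RPKmM and Itgb2l was inactive. Itgb7 was the highest of the 3 with 0.51. Of its alpha partners, Itga4 had 0.25, a factor of 2.04 lower, and Itgae was at 0.01 and 0. Itgb7 begins 3003 bases downstream of Rarg, a gene on the same strand with an activity of 5.83. Its value was therefore reported with this neighbour, whose part in it was not tested. Only 2 other members, Itga2b and Itgb4, lay within 10 kb downstream of a same-strand gene listed at 1 RPKmM or above. Itgb4 begins 7984 bases downstream of Sap30bp, which was listed at 1.

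Among the laminin chains, each position of the trimer had at least 1 chain gene at 1 RPKmM or above and at least 1 below it. For the alpha position, Lama5 (NM_001081171) had 4.59 RPKmM, above 91.4% of active entries, and Lama2, the muscle chain, had 1, so that Lama5 was 4.59 times as active. Lama4, found in vessels, and Lama3, found in skin, were each at 0.01. Lama1, the chain of the early embryo, was inactive.

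For the beta position, Lamb2 (NM_008483), known from the neuromuscular synapse and the kidney, had 7.17 and Lamb1 had 3.59, a ratio of 2.00. The epithelial Lamb3 had 0.44 in both of its entries. For the gamma position, Lamc1, which is part of most laminins, had 2.46 and Lamc3 was inactive. Summed by position, the activities were 5.61 for the alpha chains and 11.2 for the beta chains, a ratio of 2.00. Each trimer holds 1 chain of each kind, and the activities are of nascent transcription, not of RNA or protein.

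The genes were next read as the chains of known complexes. Of 24 known integrin heterodimers, 18 had an active gene for both subunits, but only 7 had both at 1 RPKmM or above. These 7 were alpha3, alpha5, alpha6, alpha7 and alphav with beta1, and alphav with beta3 and with beta5. Many of the pairs share Itgb1, so the pairs are not independent of each other. Over all single gene symbols, 68.7% were active and 31.4% were at 1 RPKmM or above. No such share was computed for pairs. In the pair of Itga7 and Itgb1 the activities differed by a factor of 1.05, in that of Itgav and Itgb3 by 1.35 and in that of Itga5 and Itgb1 by 1.89. The 12 alpha subunits that pair with Itgb1 had a summed activity of 29.0, which is 2.08 times that of Itgb1. Itga7 and Itga5 together made up 70.5% of the summed activity of all 18 alpha genes. For alpha6 beta4, Itga6 was 77.7 times as active as Itgb4, so the lower subunit was the beta subunit, as it was in the alphav pairs with beta3, beta5, beta6 and beta8.

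Of 14 laminin trimers, 9 had all 3 chain genes active and 4 had all of them at 1 RPKmM or above. These were laminin-211, laminin-221, laminin-511 and laminin-521. In the first pair Lama2, at 1, was the lowest chain, and in the second pair Lamc1, at 2.46, was the lowest. Of the other 5 trimers with all chains active, each contains Lama3 or Lama4 at 0.01. The trimers share chains and are not independent of each other, and no share over all genes was computed for sets of 3.

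**Figure D3:**
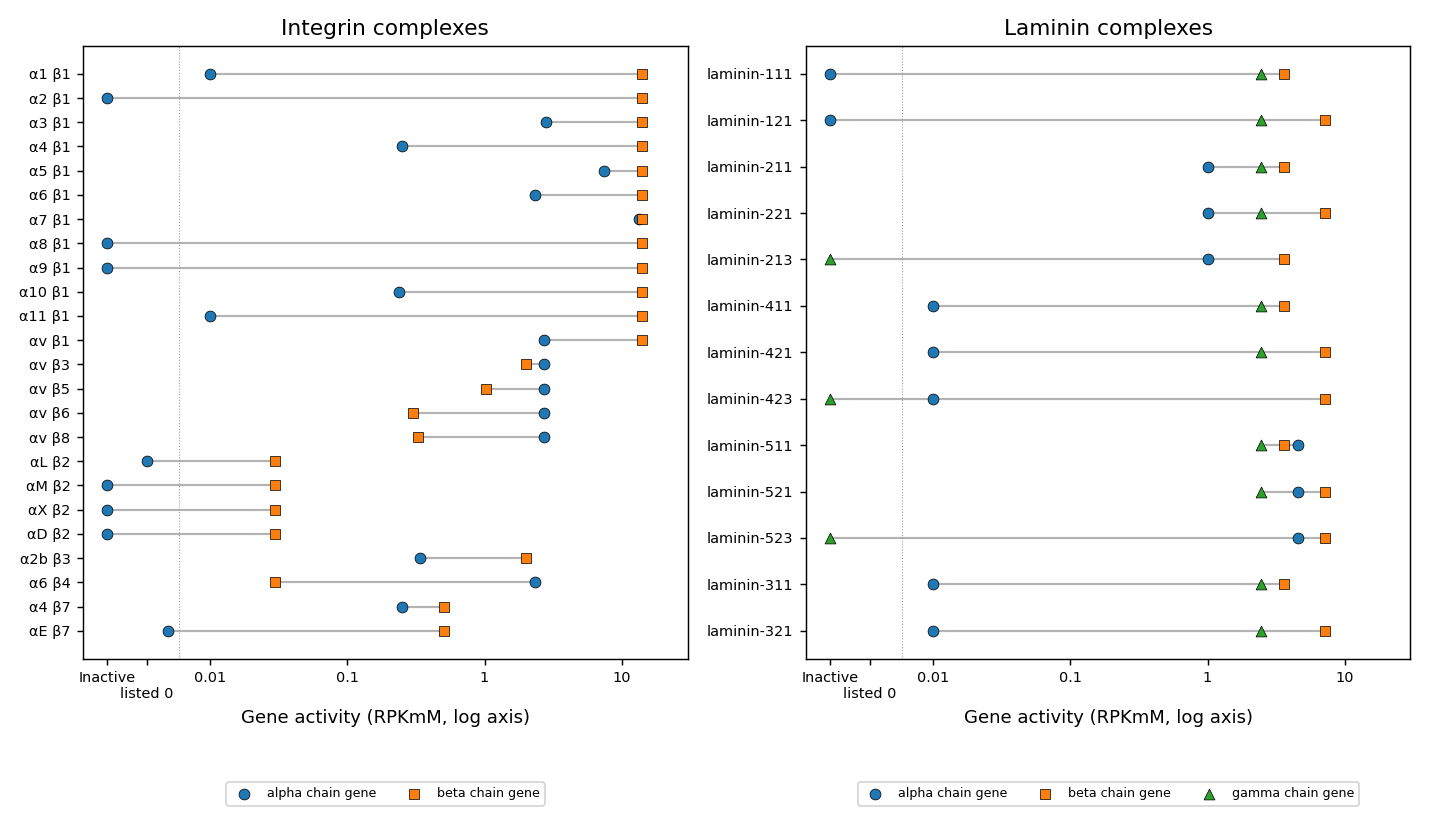
Gene activity (RPKmM, log axis) of the chain genes of each known integrin heterodimer (left, 24 rows) and of 13 laminin trimers (right), with a line from the lowest to the highest chain. Genes with several entries are shown at the median of the active ones, so that Itgae lies at 0.005, and inactive genes and genes listed at 0 stand at the left. The chains lie closest together in alpha7 beta1, where they differ by a factor of 1.05.

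The entries of a gene gave similar values. Of the 38 genes 5 had several entries, 11 entries in all, and no gene had both active and inactive ones. The highest and lowest active entry differed by a factor of 1.40 in Itgb6, 1.03 in Itga3 and 1 in Lamb3. In Itgae they were listed at 0.01 and 0, which allows no ratio. Entries of a gene overlap and share reads, so they do not replicate each other.

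Position and length were taken from the GENCODE vM1 annotation of mm9, which holds all 38 genes, on 14 chromosomes. The longest was Lama2, with 636 kb (chr10:26701094-27336748, minus strand), and the shortest was Lamb2, with 10.7 kb (chr9:108382193-108392861, plus strand). The most active members lay at chr8:131209554-131257100 (Itgb1, plus strand), chr10:128370869-128395333 (Itga7, plus strand) and chr15:103174720-103197194 (Itga5, minus strand). Median length was 62.4 kb for the 13 genes at 1 RPKmM or above, 60.3 kb for the 16 active genes below 1 and 65.5 kb for the 9 inactive genes, so these medians lay close together. Because RPKmM is a density, a long gene at the same activity holds more reads. With all bases of the gene beyond its first kb taken as mappable, the reads of a gene, scaled to the depth of the pooled libraries (RPM), were estimated as 651 for Itgb1 and 635 for Lama2, although their activities were 13.99 and 1. By the same estimate Itga7 held 312 RPM, Lamc1 278, Itga6 260, Lamb1 228, Lama5 223 and Itgav 219. The active members together held 3506 RPM, 2036 in integrin genes and 1470 in laminin genes. These are estimates, since mappable bases and the ends of each RefSeq entry were not used.

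**Figure D4:**
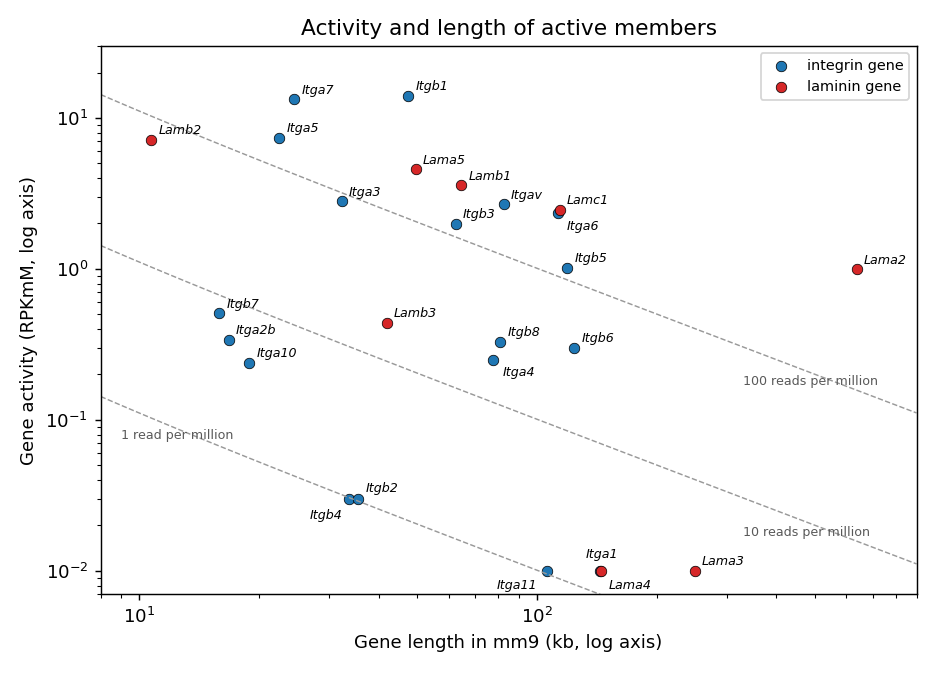
Gene activity (RPKmM) against gene length in mm9 (kb), both on log axes, for all but 1 of the members with a gene-level activity of at least 0.01. Dashed lines join points of equal estimated reads, scaled to depth (RPM), in the gene body. Lama2, at 636 kb and 1 RPKmM, lies at 635 RPM, close to the 651 of Itgb1.

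Some members neighbour each other. Itga1 and Itga2, 26.0 kb apart on chromosome 13, were at 0.01 and inactive. Itgam, Itgax and Itgad follow each other on chromosome 7 at distances of 1.39 and 3.72 kb, and all were inactive.

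CpG dinucleotides in promoters are unmethylated in CpG islands, which mark many broadly used genes, and the GC box is bound by Sp and Klf factors. In the windows of 300 bases, members at 1 RPKmM or above had a median of 19 CpGs (10 windows of 9 genes, from 1 to 27). Active members below 1 had a median of 6 (11 windows of 9 genes, from 2 to 16), and inactive members had 8 (6 windows, from 2 to 23). Among the inactive members, the Itga9 window lies well inside the gene. Its 150 upstream bases are at chr9:118620660-118620809, and the gene spans chr9:118515808-118810121 on the plus strand. Over all genes of the table that had such a window, the medians were 19 for promoters of active genes and 5 for those of inactive genes. The median of 19 covers active genes at any level, as these promoters were not split at 1 RPKmM. The windows of Itgb1, with 27 CpGs, and of Itgav, Lama5 and 1 of the 2 starts of Itga3, with 24 each, held the most. Against this order, the other Itga3 window had 5 CpGs, Lamb2 had 4 and Lama2 had 1, and Itga8 had 23 and was inactive. The printed 150 bases hold 14 CpGs for Itga8, 2 for Lamb2 and 0 for Lama2.

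The GC-box letters GGGCGG, searched on both strands, were found in 9 of the 10 windows of members at 1 RPKmM or above, with Lamb2 as the exception. They were in 1 of the 11 windows of active members below 1, that of Itga4, and in 2 of the 6 of inactive members, those of Itga2 and Itgam. Over all 27 member windows the letters were in 12 (44.4%). These letters were held by 35.7% of all RefSeq promoters, by 60.1% of those of active genes and by 25.9% of those of inactive genes. The shares over all promoters were not split at 1 RPKmM, so the 9 of 10 has no matched background. The 10 windows at 1 RPKmM or above cover 9 of the 13 genes at that level. The motif contains a CpG, so both counts overlap, and Itga3, Lamb3 and Itgb6 each enter with 2 starts. The E-box letters CANNTG, the motif of MyoD and other bHLH factors, were in 23 of the 27 member windows (85.2%), against 72.3% of all promoters, 64.7% of those of active genes and 77.8% of those of inactive genes. The 4 windows without it were those of Itgb1, Itgav, Itga10 and Itga2. The letters TATAAA, on either strand, were in none of the 27 windows, against 13.6% of all promoters, 7.45% of those of active genes and 16.1% of those of inactive genes. These are matches of letters, chosen and counted with activities known, and no binding was measured.

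**Figure D5:**
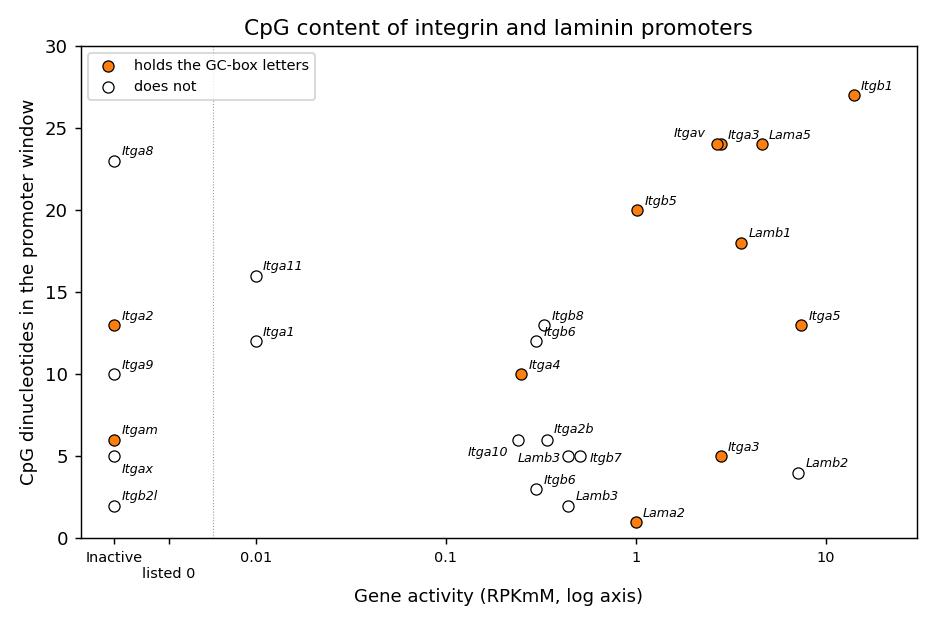
Number of CpG dinucleotides in each of 27 promoter windows of 300 bases (vertical axis) against the activity of its gene (RPKmM, log axis, inactive genes at the left). Filled points hold the GC-box letters GGGCGG on either strand. Of the 10 windows at 1 RPKmM or above 9 are filled, and Lamb2 is the open one.

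The genes that work with integrins inside the cell were mostly active. Of 23 adhesion adaptor genes 22 were active, 19 of them at 1 RPKmM or above, with a median of 2.75. The highest were the actin crosslinker Flna, at 100.2, the focal adhesion protein Zyx, at 36.72 and 31.29 in its entries, and the alpha-actinin gene Actn1, at 11.97. The kindlin genes differed, as Fermt2 had 1.36, the haematopoietic Fermt3 had 0.1 and the epithelial Fermt1 was inactive. Parvg, another gene known from blood cells, had 0.12 and 0.13. Tln1, for the talin that binds the beta subunit tail, had 9.17.

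Of 21 genes for integrin ligands and basement membrane proteins, 18 were active and 14 were at 1 or above, with a median of 3.59. Osteopontin (Spp1) had 116.04 and 76.01 in its entries, fibronectin (Fn1) 66.28 and thrombospondin (Thbs1) 44.83, all of them proteins bound by RGD-binding or related integrins. Fn1 and Spp1 were thus above every integrin gene. The linker of laminin and collagen networks Nid1 had 19.8 and perlecan (Hspg2) 5.59. Vitronectin (Vtn), and the leukocyte integrin ligands Icam1 and Madcam1, were inactive. Of 10 other laminin receptors and integrin partners, all were active, led by the tetraspanins Cd81, at 6.71, and Cd151, at 4.46 and 4.78, and by Sdc4, at 4.18. The dystroglycan gene Dag1 had 2.11 and 2.12. Lowest were Bcam, a receptor of the alpha5 laminin chain, at 0.2, Sdc3 at 0.52 and Sdc1 at 1.24. Of 7 netrin and related genes, which share domains with laminins, 5 were active but none reached 1, with Ntn1 highest at 0.88 and Ntng1 inactive. The genes whose symbols resemble those of members but were left out were all active, with Itgb1bp2 at 0.86, Itgb3bp at 0.58, Itgb1bp1 at 0.36 and Itgbl1 at 0.01. These lists were chosen for what the genes do, with earlier results of these data known, and their counts are to be read against the 68.7% of all gene symbols that were active and the 31.4% at 1 RPKmM or above.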

How the data were processed

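Nascent transcription was measured by GRO-seq in 2 replicate libraries of C2C12 myoblasts. The submitters' processing notes name CASAVA 1.8, Bowtie2 and mm9. According to their methods, the authors mapped reads with Bowtie2, trimmed and realigned reads that failed, kept uniquely mapped reads, discarded reads at rRNA and tRNA repeats and pooled both libraries. The authors deposited gene activity as a density per mappable kilobase (RPKmM, read here as an RPKM value), with Inactive in place of a number in 7208 cells. The unit was read from the header and the methods, as a column with words could not be checked as RPKM. Pooling hides the spread between libraries, and reads that map to several places are lost from near-identical genes. Depth per library is not given in the table, and no counting interval was computed. The paper does report the pooled read total and a rank correlation between the libraries, but neither was used here.

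Members were found by symbol. The rule for members uses symbols only, but it, the gene lists and the complexes were chosen with earlier results of these data known. Values of 1 member and of some other genes are not reported here, though counts include them. All other member genes are named, and of each pathway list the 3 highest and up to 3 lowest or inactive genes. Where other genes of these lists are named, they were chosen after their values were seen. Genes with several entries were represented by the median of the active entries. Counts, shares, quartiles, ranks, sums, ratios and estimated reads per gene were computed, and no test was possible. The calculation was tested on simulated data. Alternatives were 1 count per gene, other thresholds, pseudocounts of 0.01 and 0.001, and Inactive taken as 0. Gene positions came from GENCODE vM1 (mm9) and promoters from RefSeq (GRCm38.p6). Python 3.11.15, numpy 2.4.6, pandas 2.3.3 and matplotlib 3.10.9 were used.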

Additional observations from a re-analysis of the deposited data

How the results depend on the processing

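Of 24 alternative values for 7 results, 17 stayed within a factor of 1.5 of the reported value and 7 did not. The median activity of active members, 0.44 RPKmM, became 0.25 when inactive entries were taken as 0. The ratio of the laminin to the integrin median, 2.99, became 1.60 and 1.78 with geometric means and pseudocounts of 0.01 and 0.001, and 1.83 when inactive genes were taken as 0, so it stayed above 1. Requiring each chain to reach 1 RPKmM left 7 of 18 integrin heterodimers and 4 of 9 laminin trimers, and the latter were also 4 at a threshold of 0.1. These changes follow from the low and inactive genes that each alternative adds, removes or reweights. No paired analysis was possible because both libraries were pooled in the table, and for the same reason no library could be left out. Values of 0.01 and below are limited by rounding, and their order cannot be read.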
